A study of Mus musculus with 15 samples.

Results

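The enzymes described here carry glucose through the core steps of glycolysis in fast muscle. They were chosen by name: Hk1, Gpi1, Aldoa, Tpi1, Gapdh, Pgk1, Pgam1, Pgam2, Eno3 and Pkm. Of these 10 genes 9 had a row in the count table, out of 13602 genes in all, and Gapdh was not analysed here. All 9 passed the filter on low counts, with 10 or more tags in every library. The tissue was gastrocnemius, the fast-twitch muscle of the calf, from male mice. The 7 knockout (KO) libraries came from mice lacking Cpt1b in skeletal muscle, and the 8 control libraries from wild-type mice carrying floxed Cpt1b. Cpt1b encodes the muscle enzyme that passes long-chain fatty acids to the mitochondrion. The labels do not give the promoter that drove the deletion, and they describe both groups as chow-fed for 12 to 14 weeks in the titles and series text but as fed 45% HFD in the diet field. The labels state 7 knockout and 8 wild-type mice, so each library was taken as 1 mouse.

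Glycolysis splits glucose to pyruvate and yields ATP without oxygen. Fast fibres hold very large amounts of its enzymes, which supply ATP in short bursts of contraction. A hexokinase traps glucose, an isomerase, an aldolase and a triose isomerase turn it into 3-carbon sugars, and the later enzymes recover ATP. Several steps have a muscle form and a form found in most cells, as with Pgam2 and Pgam1.

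Each count stands for a sequencing tag, read next to a restriction site in the 3' part of a transcript, so it does not scale with transcript length. The labels do not name the enzyme used. The tags below were predicted as the 27 bases from the CATG nearest the 3' end of the principal GENCODE M21 transcript on GRCm38, CATG being the usual site in this method. They are shown because they decide which transcripts a count can represent, and CATG is in capitals.
Eno3: CATGgacctcattcctctctggggtgg
Aldoa: CATGcctactaaccagagctgaactaa
Pgk1: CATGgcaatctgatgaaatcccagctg
Pgam2: CATGgaagctgttgctgcccagggaaa
Pgam1: CATGttccagctgcttgaccctaccgt
Pkm: CATGcaatagagaccagctattattca
Gapdh: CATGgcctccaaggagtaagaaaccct

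The predicted tag of each of the 9 measured enzymes occurred in 1 gene only, so these tags are not shared with a relative as far as the annotation shows. Only 1 predicted tag a gene was checked. It ended 3 of 9 coding transcripts of Aldoa, 4 of 7 of Eno3 and 2 of 18 of Hk1. As the counting of tags is not given, the deposited counts may hold other tags. The Gapdh tag (chr6:125162024-125162050, minus strand) was the last tag of 6 annotated genes, Gapdh among them. The Eno3 tag (chr11:70661431-70661457, plus strand) lay in coding exon 9 of 12, 479 bases from the transcript's end, the longest such distance of the 10 genes. The Aldoa tag (chr7:126795404-126795430, minus strand) spanned the end of the coding sequence in exon 9. The Pgam2 tag (chr11:5801683-5801709, minus strand) was coding, in exon 3, and the Pgam1 tag (chr19:41918558-41918584, plus strand) lay in the 3' UTR of exon 4. The Pgk1 tag (chrX:106203617-106203643, plus strand) and the Pkm tag (chr9:59678980-59679006, plus strand) lay in the 3' UTR of exon 11. Of 9 coding transcripts of Pkm 2 ended in this tag. Whether they are the muscle splice form and the form of proliferating cells was not looked up, so Pkm counts were not assigned to either form.

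Totals ran from 8334436 tags in control replicate 1 to 19397255 in KO replicate 4. On the first principal component, which held 44.6% of the variance, KO replicate 4 (76.2) and control replicate 7 (51.2) lay farthest out, and they were the deepest library of their groups. Results are given without them below. Levels are in CPM, counts scaled to library depth by TMM factors. Cpt1b itself averaged 3.79 ± 1.64 CPM in KO muscle and 7.64 ± 3.17 CPM in control muscle (SD, n = 7 and 8), with overlapping groups. Its log2 fold change was -1.03 ± 0.31 (SE; adjusted p = 0.103, edgeR), and its predicted tag lies in the 3' UTR, whose place relative to the deletion the labels do not give. That tag is the last tag of 2 annotated genes, Cpt1b and Gm44502, so the count can hold tags of either. The 14 fast-fibre markers summed to 184100 ± 20350 CPM in KO muscle and 223100 ± 20420 CPM in control muscle, so the labelled fast muscle was present in both groups.

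None of the 9 enzymes passed the test between KO and control muscle. In edgeR's quasi-likelihood fit 240 of the 11062 tested genes (2.17%) passed a Benjamini-Hochberg adjusted p of 0.05, 185 higher in KO muscle (1.67%) and 55 lower (0.497%), against 0 of the 9 enzymes. DESeq2, which called 3.3% of genes, and limma voom, which called 2.09%, also called 0 of 9. At an unadjusted p under 0.05 edgeR had 1 of 9, Pkm, beside 13.6% of all genes. The enzymes had 4 positive and 5 negative log2 fold changes, against 49.4% negative over all genes, and a median of -0.01 where all genes had 0.00, with the signs of Hk1, Gpi1 and Aldoa turning under at least 1 other scaling. No enzyme had groups that did not overlap, as 1.19% of genes did. With so few enzymes these shares do not set them apart from the background. In a whole muscle, fewer fibres of a type and less RNA per fibre cannot be told apart.

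**Figure D1:**
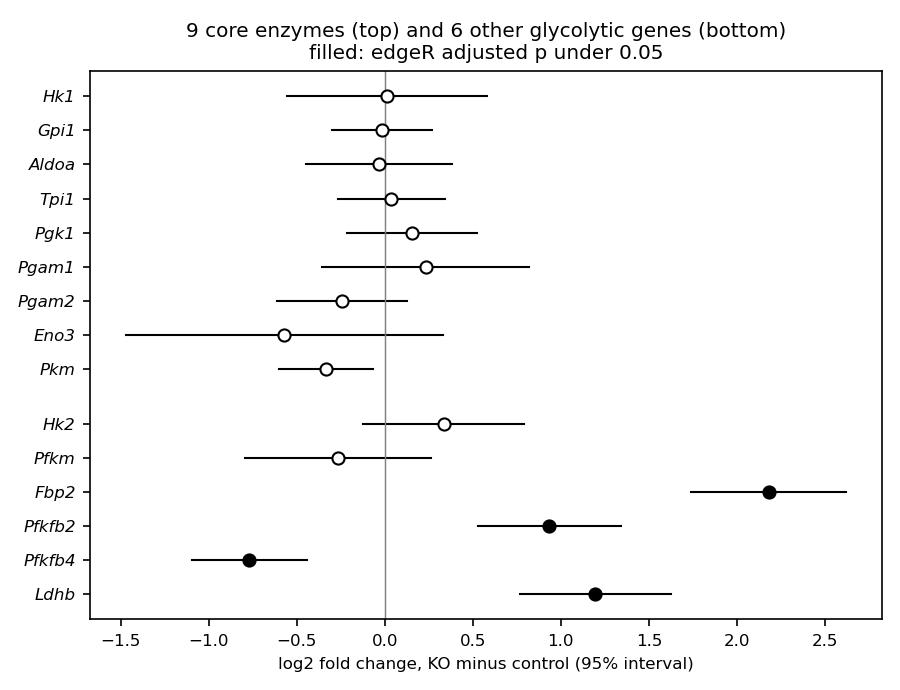
Log2 fold change, KO minus control, with its 95% interval from the edgeR fit (7 KO and 8 control libraries) for the 9 core enzymes above and 6 other glycolytic genes below; filled points passed an adjusted p of 0.05. All 9 core enzymes are open, from -0.57 for Eno3 to 0.23 for Pgam1, while Fbp2, Pfkfb2, Ldhb and Pfkfb4 are filled.

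The upper steps of the pathway had close means in both groups. Hk1, the hexokinase of most tissues that traps glucose as glucose 6-phosphate, ranged from 1.11 through a median of 2.24 to 3.30 CPM in KO muscle, and from 0.897 through 2.02 to 3.50 CPM in control muscle. These levels rest on 10 to 66 tags a library, and the KO range lay inside the control range. The log2 fold change of Hk1 was 0.01 ± 0.27 (SE), with a 95% interval of -0.56 to 0.58. A change within that interval could not be told from none.

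Gpi1, which turns glucose 6-phosphate into fructose 6-phosphate, ranged from 1576 through 1995 to 2427 CPM in KO muscle, and from 1472 through 2011 to 2451 CPM in control muscle. The groups covered almost the same range. Its log2 fold change was -0.01 ± 0.14 (SE, interval -0.30 to 0.27), which is 0.813 to 1.21 as a fold. Its within-group spread was an SD of 0.23 on the log2 scale, beside 0.22 for Pkm and 0.26 for Tpi1.

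Aldoa, the muscle aldolase that splits fructose 1,6-bisphosphate, ranged from 8418 through 15150 to 17630 CPM in KO muscle, and from 9577 through 15960 to 19010 CPM in control muscle. Within each group the libraries spread over about the same stretch, with a highest-to-lowest ratio of 2.09 in KO muscle and 1.99 in control muscle. Its log2 fold change was -0.03 ± 0.20 (SE, interval -0.45 to 0.38).

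Tpi1, the triose phosphate isomerase that joins both 3-carbon products, ranged from 2751 through 4956 to 5471 CPM in KO muscle, and from 3920 through 4429 to 5423 CPM in control muscle. The lowest KO value belonged to replicate 4, and the other 6 KO libraries held 4519 CPM or more. The log2 fold change was 0.04 ± 0.14 (SE, interval -0.27 to 0.34). The within-group SD on the log2 scale was 0.26 over all libraries and 0.14 without KO replicate 4.

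The later steps, from Pgk1 on, held the enzymes with larger differences between the group means, none of which passed the test. Pgk1, which makes the first ATP of the pathway, ranged from 1254 through 1385 to 2733 CPM in KO muscle, and from 1222 through 1416 to 2146 CPM in control muscle. KO replicate 4 and control replicate 7 held the highest value of their groups, and the medians of the groups were close. Its log2 fold change was 0.15 ± 0.18 (SE, adjusted p = 0.700) over all libraries and -0.01 without KO replicate 4.

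Pgam1, the phosphoglycerate mutase of most cells, ranged from 5.78 through 9.68 to 21.8 CPM in KO muscle, and from 5.63 through 8.24 to 15.7 CPM in control muscle. The same pair of libraries, KO replicate 4 and control replicate 7, was highest here too. The log2 fold change was 0.23 ± 0.28 (SE, adjusted p = 0.717) over all libraries and -0.06 without KO replicate 4. Pgam2, the mutase of mature muscle, ranged from 2200 through 3163 to 3982 CPM in KO muscle, and from 1967 through 3626 to 4416 CPM in control muscle. Its log2 fold change was -0.24 ± 0.18 (SE, adjusted p = 0.561), and the groups overlapped.

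The muscle mutase far outnumbered the other in every library. Within a library the number of Pgam2 tags for each Pgam1 tag ran from 153 to 543 in KO muscle, and from 125 to 688 in control muscle. The log2 ratio averaged 8.27 ± 0.66 in KO muscle and 8.68 ± 0.79 in control muscle (SD, n = 7 and 8), a difference of -0.41. The difference did not pass a two-sided exact permutation test over all 6435 arrangements (p = 0.301, adjusted p = 0.301 over 2 ratios). Without control replicate 7, whose ratio of 125 was the lowest, the difference was -0.65, and the unadjusted p of the exact permutation test was 0.0478. Without KO replicate 4, whose ratio of 153 was the lowest KO value, it was -0.24, with an exact permutation p of 0.545. The ratio of Hk1 to Hk2, the hexokinase of muscle and fat that answers to insulin, had a log2 value of -5.44 ± 0.48 in KO muscle and -5.12 ± 0.59 in control muscle. That difference of -0.32 had an exact permutation p of 0.262, with an adjusted p of 0.301. Hk1 was thus the minor form in both groups, while a ratio of Eno3 to Eno1 was not analysed here.

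Eno3, the enolase of striated muscle that makes phosphoenolpyruvate, had the largest spread of the 9. It held 18840, 11410, 14640, 6019, 8927, 22670 and 11060 CPM in KO replicates 1 to 7. It held 34420, 38010, 10110, 3182, 24560, 24880, 6069 and 17420 CPM in control replicates 1 to 8. All KO values lay inside the control range, where the highest library held 11.9 times the lowest. In KO muscle that ratio was 3.77. The log2 fold change was -0.57 ± 0.43 (SE, adjusted p = 0.573), and its interval of -1.47 to 0.33 spans folds of 0.362 to 1.26. This log2 difference was -0.37 without control replicate 2, -0.30 in limma voom and -0.26 with the replicate number as a block. The difference was smaller than the spread between libraries.

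Pkm, the pyruvate kinase of muscle and of most other tissues, had the smallest p of the 9. It held 242, 254, 292, 166.5, 319, 279 and 259 CPM in KO replicates 1 to 7. It held 344, 329, 306, 300, 331, 302, 384.5 and 314 CPM in control replicates 1 to 8. In KO muscle 6 of 7 libraries lay below the lowest control library, and KO replicate 5 lay among the controls. The means were 259.0 ± 48.2 CPM in KO muscle and 326 ± 28.3 CPM in control muscle (SD). The log2 fold change was -0.33 ± 0.13 (SE, interval -0.60 to -0.06), a fold of 0.794. Its edgeR p was 0.0180 before adjustment and 0.249 after it, so it did not pass. Over 26 alternative settings the sign stayed negative, with log2 values from -0.39 to -0.22 and adjusted p from 0.113 to 0.422.

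**Figure D2:**
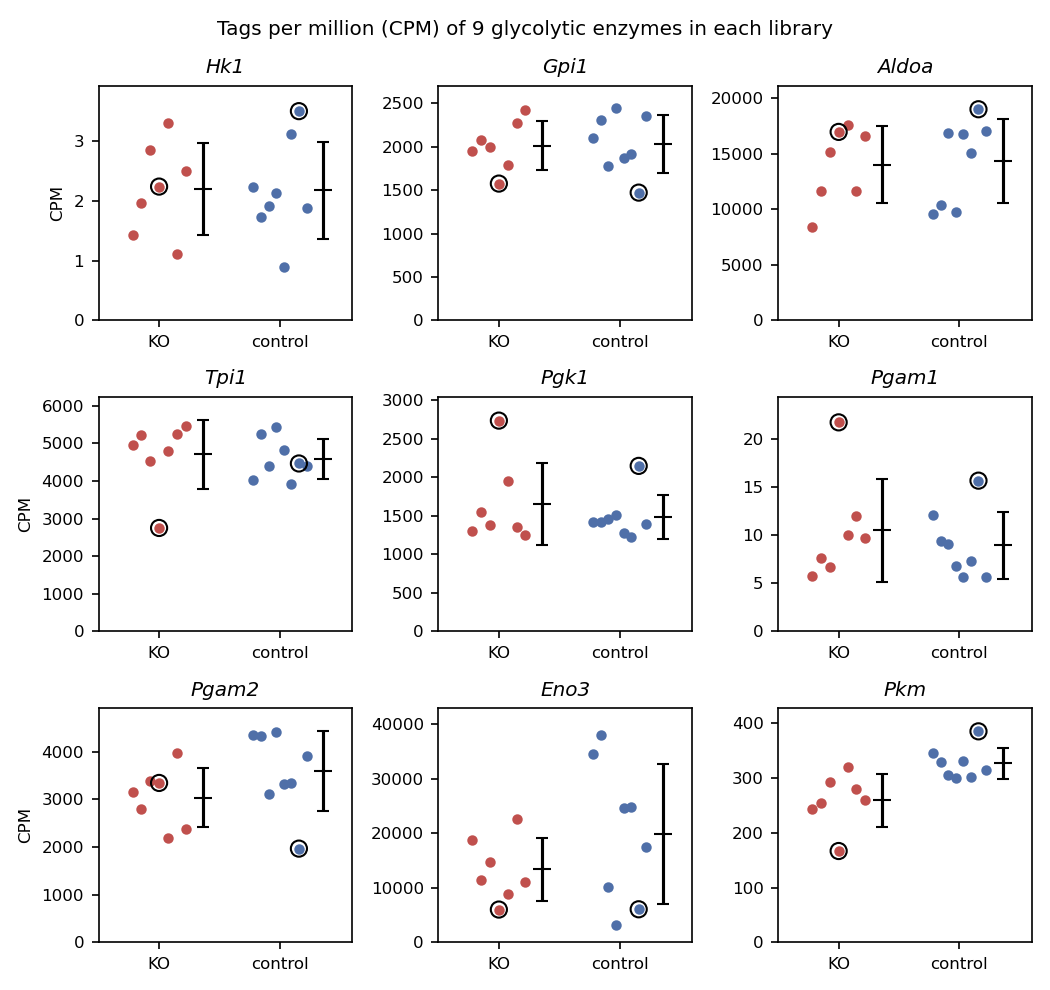
Level (CPM) of each of the 9 enzymes, 1 point a library, KO left (n = 7) and control right (n = 8), with the mean and SD as a bar beside the points; rings mark KO replicate 4 and control replicate 7. The groups overlap in every panel, Eno3 ranges from 3182 to 38010 CPM, and the ringed libraries are the highest of their groups for Pgk1 and Pgam1.

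The levels did not follow the order of the pathway. The mean CPM over all libraries was 16810 for Eno3, 14180 for Aldoa, 4644 for Tpi1, 3333 for Pgam2, 2024 for Gpi1, 1558 for Pgk1, 295 for Pkm, 9.70 for Pgam1 and 2.19 for Hk1. Eno3 ranked 7 and Aldoa 12 among the 11062 tested genes, whereas Hk1 ranked 9206. As a tag does not scale with length, these are levels of tags for each gene and not amounts of protein. Eno3 exceeded Aldoa in only 7 of 15 libraries, 2 of the KO and 5 of the control ones, so the order of the leading pair does not hold across libraries. Aldoa exceeded Tpi1 in all 15, Tpi1 exceeded Pgam2 in 13, Pgam2 exceeded Gpi1 in 14 and Gpi1 exceeded Pgk1 in 12. The order from Pgk1 to Pkm, Pgam1 and Hk1 was the same in all 15 libraries.

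The 9 enzymes took 3.97% ± 0.37 of all tags in KO muscle and 4.50% ± 0.98 in control muscle (SD, n = 7 and 8). The share ranged from 3.50% to 4.54% in KO libraries and from 2.55% to 5.65% in control libraries, so all KO shares lay inside the control range. Eno3 alone took 1.34% ± 0.52 in KO muscle and 1.90% ± 1.17 in control muscle. Aldoa took 1.45% ± 0.43 in KO muscle and 1.43% ± 0.47 in control muscle. Without Eno3 the others took 2.63% ± 0.45 in KO muscle and 2.60% ± 0.44 in control muscle, a difference of 0.03 percentage points. With Eno3 it was -0.53, and -0.81 without control replicate 4. As a share of tags with the 10 most abundant other genes left out, it was -0.89. Eno3 made up 17.9% to 48.4% of the enzymes' tags in KO libraries and 11.7% to 61.3% in control libraries. The lowest share of all was in control replicate 4 and the highest in control replicate 2.

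**Figure D3:**
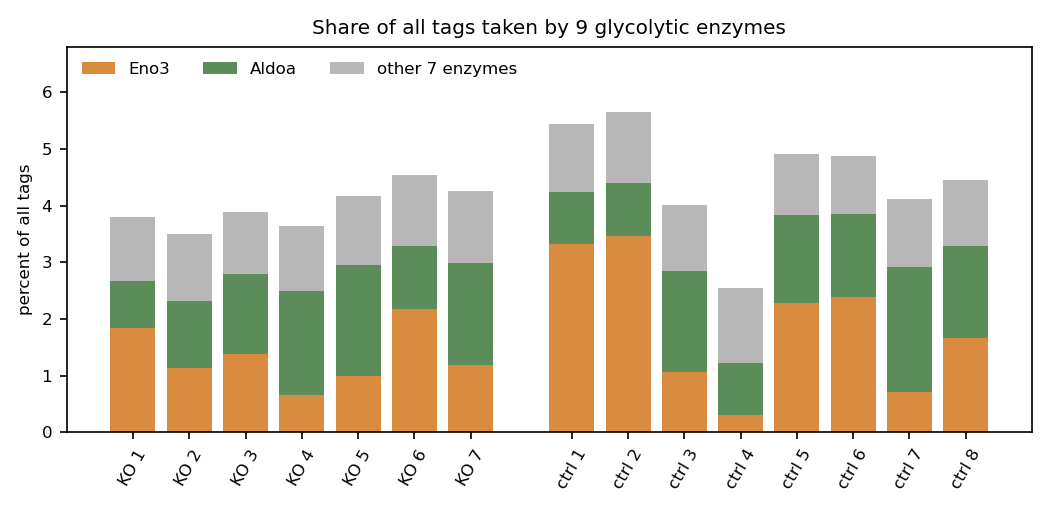
Percent of all tags taken by Eno3, Aldoa and the other 7 enzymes in each library, with the 7 KO libraries left and the 8 control libraries right. The Eno3 part runs from 0.651% to 2.17% in KO libraries and from 0.299% to 3.46% in control libraries, while the rest of the bar changes less.

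The spread between libraries was set against that of the tested genes nearest in abundance. For each enzyme the SD of log2 CPM within groups was compared with the 200 genes nearest in mean level, as a description without a test. For the most abundant enzymes these neighbours were not of like level. Those of Eno3 and Aldoa ran from 590 to 67450 CPM and those of Pgam2 from 577 to 15570 CPM, while those of Pkm ran from 231 to 366 CPM. Eno3 had an SD of 1.03 (0.65 in KO muscle, 1.27 in control muscle), where its 200 neighbours had a median of 0.35, and 198 of them had a smaller SD. Counting error alone would give Eno3 an SD of 0.00327, so its tag number is not the limit. Pgam1 followed with 0.57 and 168 of 200 neighbours below it, its counting error being 0.13. Hk1 had 0.53, close to its neighbours' median of 0.49, with a counting error of 0.27.

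The others were near or under the neighbours' median. Aldoa had an SD of 0.40 with 119 of 200 below, Pgam2 0.35 with 99, Pgk1 0.33 with 85, Tpi1 0.26 with 61, Pkm 0.22 with 41 and Gpi1 0.23 with 39. Pkm differed by group in this, at 0.30 in KO muscle and 0.12 in control muscle, and without KO replicate 4 its SD was 0.13. Among genes often used as references in quantitative PCR, the SD was 0.16 for Sdha, a subunit of succinate dehydrogenase, and 0.27 for Actb, a cytoskeletal actin. These SDs are within groups, so they leave out a difference between groups. Sdha had a log2 fold change of 0.43 ± 0.11 (SE, adjusted p = 0.0527, edgeR). Its groups did not overlap, at 568 to 786 CPM in KO muscle and 438 to 556 CPM in control muscle. Actb had -0.32 ± 0.15 (SE, adjusted p = 0.347, edgeR). Of the 12 references tested, 9 had a larger SD than Actb. Gpi1, Tpi1 and Pkm had smaller SDs than Actb.

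**Figure D4:**
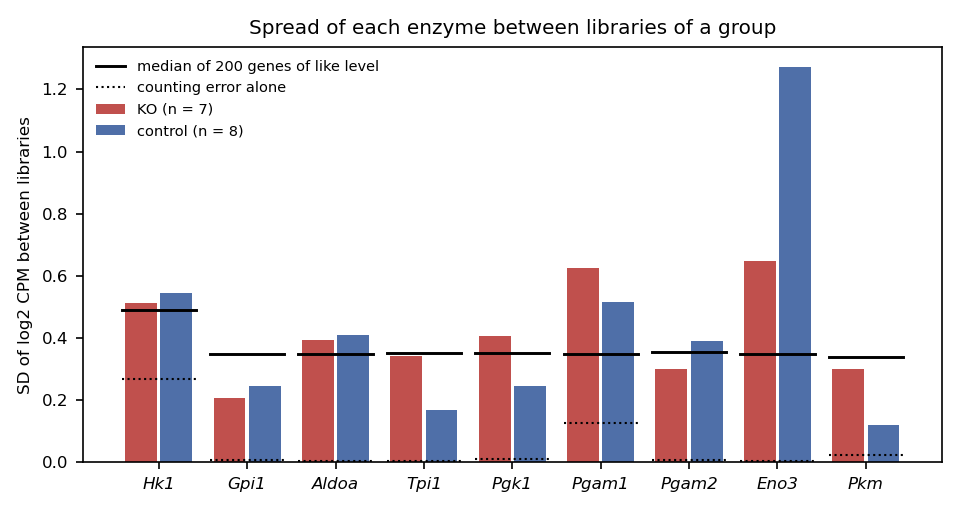
SD of log2 CPM between libraries for each enzyme, KO bars left (n = 7) and control bars right (n = 8). The median SD of the 200 genes nearest in level is a solid line, and counting error alone is a dotted line. The Eno3 bars (0.65 in KO, 1.27 in control) stand above the line at 0.35, and both Gpi1 bars stand below theirs.

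The profiles of the enzymes over the libraries were compared by distance. Each gene's log2 CPM was centred on its own mean, and the root mean squared distance between profiles was taken over 15 libraries. This distance grows with the spread of either gene, so it restates in part the SDs above. It was smallest between Gpi1 and Tpi1 (0.21), both of low spread, and for Eno3 it ran from 0.90 to Pgam2 to 1.26 to Hk1. Pgk1 and Pgam1 lay 0.36 apart, while the paralogues Pgam1 and Pgam2 lay 0.71 apart. The mean profile of the 9 was flat, between -0.215 and 0.201 in every library. By the rule used, the genes of at least 100 CPM nearest to that flat mean were Zfp106 (0.10), Txlnb (0.11), Rab14 (0.12), Gaa (0.13) and Nfic (0.13), of 1154 genes.

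KO replicate 4 and control replicate 7 held many of the extreme values. Control replicate 7 was the highest control library for Hk1, Aldoa, Pgk1, Pgam1 and Pkm and the lowest for Gpi1 and Pgam2. KO replicate 4 was the highest KO library for Pgk1 and Pgam1 and the lowest for Gpi1, Tpi1, Eno3 and Pkm. Pkm thus lay at opposite ends in these libraries. Without both of them the test called 403 genes and 0 of the 9 enzymes. The part that depth, at 19397255 and 16238258 tags, had in these values was not tested.

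**Figure D5:**
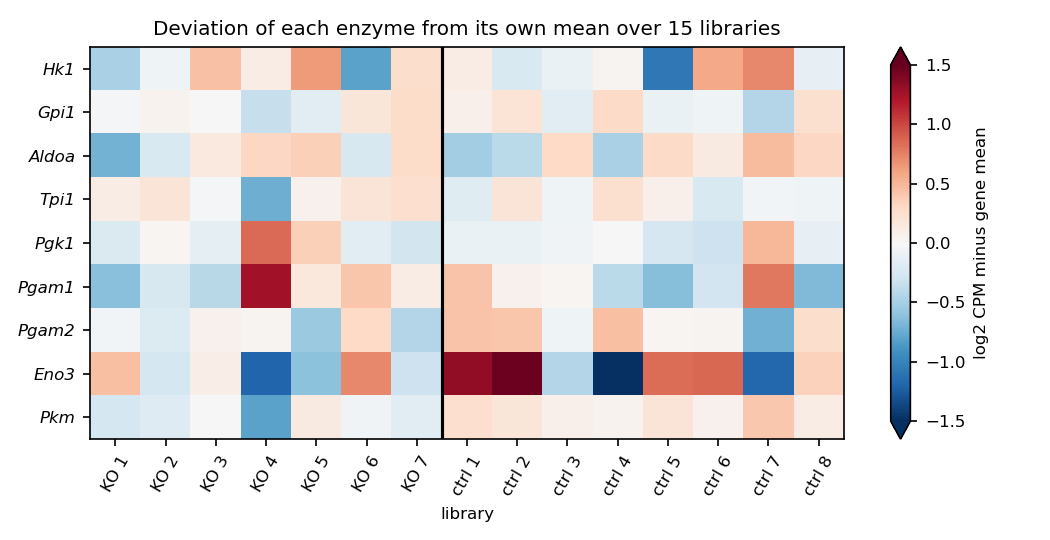
Deviation of each enzyme's log2 CPM from its own mean over 15 libraries, with KO libraries left of the line and control libraries right; red is above the mean and blue below. The Eno3 row has the deepest colours among controls, Pgk1 and Pgam1 are red in KO replicate 4 and control replicate 7, and no column is red or blue throughout.

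The genes nearest to the Eno3 profile were looked up after its values were seen. They were Art1 (distance 0.42), Larp1 (0.42), Btf3 (0.50), Pkdcc (0.63) and Abcf2 (0.65). Art1, an ADP-ribosyltransferase of muscle, ranged from 224 through 411 to 636 CPM in KO muscle, and from 182 through 651 to 990 CPM in control muscle. As with Eno3, control replicates 1 and 2 were the highest controls, and control replicates 4 and 7 the lowest, in reverse order. The log2 fold change of Art1 was -0.48 ± 0.32 (SE, adjusted p = 0.527). None of these 5 genes passed the test.

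The promoters of 3 of the enzymes are given because Pgk1 and Pgam1 were high in the same libraries and Eno3 was low there. They were picked after these values were seen, and a link between promoter and level was not tested. Each is the 250 bases before a RefSeq start on GRCm38.p6, with ACGTG or its reverse complement in capitals. ACGTG is a form of the core of hypoxia response elements. Other forms of that core were not searched, so a promoter without capitals may still hold one.
Pgk1 (chrX:106186850-106187099, plus strand): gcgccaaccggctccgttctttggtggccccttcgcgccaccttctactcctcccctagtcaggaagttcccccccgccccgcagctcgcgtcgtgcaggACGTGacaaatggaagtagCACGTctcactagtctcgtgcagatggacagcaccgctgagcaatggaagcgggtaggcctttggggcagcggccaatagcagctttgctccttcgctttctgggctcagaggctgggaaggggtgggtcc
Pgam1 (chr19:41911621-41911870, plus strand): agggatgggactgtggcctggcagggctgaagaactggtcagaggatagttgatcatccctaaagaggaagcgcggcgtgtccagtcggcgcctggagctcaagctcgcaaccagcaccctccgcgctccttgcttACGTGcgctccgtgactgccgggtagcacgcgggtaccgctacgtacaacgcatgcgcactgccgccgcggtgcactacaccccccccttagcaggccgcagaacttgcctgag
Eno3 (chr11:70656926-70657175, plus strand): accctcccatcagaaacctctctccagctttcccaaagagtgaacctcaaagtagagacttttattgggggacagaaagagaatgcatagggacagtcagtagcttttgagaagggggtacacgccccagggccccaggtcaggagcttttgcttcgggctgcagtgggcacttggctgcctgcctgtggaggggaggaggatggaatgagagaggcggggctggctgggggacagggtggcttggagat
Read on both strands, ACGTG occurred in the promoters of 4 of the 10 genes, Aldoa, Pgk1, Pgam1 and Pkm, and in 16.6% of 32851 promoters. In control replicate 7 these 4 genes had their highest control value. In KO replicate 4 Pgk1 and Pgam1 had their highest KO value, Aldoa ranked 2 of 7 and Pkm was lowest. A gene with several starts was counted once, so the shares are not of like units. The E-box CANNTG, which can overlap ACGTG, occurred in 8 of 10 genes and 66.2% of promoters, and GGGCGG in 5 of 10 and 32.7%. TATAAA, found in 12.4% of promoters, was in none of the 10. These are matches of letters and not shown to be sites.

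Other genes of glucose use were taken from a list of 39 enzymes, isoforms and transporters, of which 30 had a row and 26 were tested. Of these 3 were higher in KO muscle, 1 was lower and 22 did not pass, with a median log2 fold change of -0.03. Over all tested genes 1.67% were higher and 0.497% lower, with a median of 0.00. The called genes were Fbp2, Ldhb, Pfkfb2 and Pfkfb4. A test of these genes against the core enzymes was not run.

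Fbp2, the muscle fructose 1,6-bisphosphatase that runs the phosphofructokinase step backwards, ranged from 397 through 548 to 744 CPM in KO muscle, and from 49.9 through 124 to 164 CPM in control muscle. The groups did not overlap, as was so for 1.19% of all tested genes. It rose by a log2 fold change of 2.18 ± 0.21 (SE, adjusted p = 3.31e-06), a fold of 4.53, and passed under all 26 alternative settings. Ldhb, the heart form of lactate dehydrogenase, ranged from 139 through 198 to 355 CPM in KO muscle, and from 64.5 through 82.2 to 130 CPM in control muscle. It rose by 1.20 ± 0.20 on the log2 scale (SE, adjusted p = 0.00227), and again the groups did not overlap. Ldha, the muscle form of that enzyme, had a log2 fold change of -0.20 ± 0.20 (SE, adjusted p = 0.667).

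Pfkfb2 and Pfkfb4 make and break down fructose 2,6-bisphosphate, an activator of phosphofructokinase. Pfkfb2 averaged 24.4 ± 8.74 CPM in KO muscle and 12.7 ± 2.77 CPM in control muscle (SD), a log2 rise of 0.93 ± 0.19 (SE, adjusted p = 0.0111). Pfkfb4 averaged 27.3 ± 3.39 CPM in KO muscle and 46.4 ± 12.5 CPM in control muscle (SD), and its log2 fold change was -0.77 ± 0.16 (SE, adjusted p = 0.00934). In a fit with the replicate number as a block neither passed, with log2 fold changes of 0.90 for Pfkfb2 (adjusted p = 0.0865) and -0.64 for Pfkfb4 (adjusted p = 0.115). Pfkm, the muscle phosphofructokinase itself, had a log2 fold change of -0.27 ± 0.25 (SE, adjusted p = 0.646), and Hk2 one of 0.34 ± 0.22 (SE, adjusted p = 0.516).

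Markers of fibre type are given beside the enzymes. Of 14 fast-fibre markers 12 had a negative log2 fold change and 1 passed the test, Tnnt3, the fast skeletal troponin T, which fell to 1983 ± 305 CPM in KO muscle, against 3121 ± 338 CPM in control muscle (SD). Its log2 fold change was -0.65 ± 0.13 (SE, adjusted p = 0.00629), while Myh4, the myosin of the fastest fibres, had -0.21 ± 0.13 (SE, adjusted p = 0.507). The other 2 were positive, both fast myosins: Myh2 at 0.79 ± 0.34 (SE, adjusted p = 0.307) and Myh1 at 0.64 ± 0.33 (SE, adjusted p = 0.401), named after their values were seen. The list's median was -0.21. Over all tested genes the median was 0.00, 49.4% were negative, 1.67% passed as higher and 0.497% as lower. Of 10 slow-fibre markers all 10 were positive, with a median of 0.70, and 3 passed: Atp2a2, the calcium pump of slow fibres and heart (0.84 ± 0.17, adjusted p = 0.00897), Pln, its inhibitor (1.18 ± 0.26, adjusted p = 0.0162), and Casq2, a calcium store protein (0.80 ± 0.19, adjusted p = 0.0351). Myh7, the slow myosin, had a log2 fold change of 0.16 ± 0.32 (SE, adjusted p = 0.832). The slow markers summed to between 2950 and 4996 CPM in KO libraries, and between 1770 and 4465 CPM in control libraries. The fast markers summed to between 151500 and 215300 CPM in KO libraries, and between 187000 and 240100 CPM in control libraries. The part of fibre type in the enzymes' values was not tested.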

How the data were processed

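SAGE libraries of gastrocnemius RNA (500 ng each, Trizol, barcoded SOLiD SAGE kit, per the labels' protocols) were compared between 7 KO and 8 control mice. The authors deposited raw counts of tags per gene symbol and a second table of signal values, each a count over its library's size factor, to within a relative 5.4e-10. DESeq2 and the builds mm10 and GRCm38.p1 are named in the submitters' processing notes. The aligner and the counting of tags are not given in the sources used here.

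From the deposited counts, edgeR 4.0.16 in R 4.3.3 fitted all 15 libraries by its quasi-likelihood test. The fit used TMM scaling, a low-count filter (minimum count 10) that left 11062 of 13602 genes, and Benjamini-Hochberg adjustment at 0.05 over those genes. SEs and 95% intervals come from the fit. CPM are TMM-scaled, with a prior count of 2 on the log2 scale, and shares are of raw totals. Paralogue ratios added 0.5 to each count. Totals of 8334436 to 19397255 tags keep counting error small except for Hk1 and Pgam1. Libraries of a group differed beyond sampling noise (lowest chi-square per degree of freedom 11.5), so none was merged. The procedure was tested on simulated counts with the same dispersion for all genes. Of 100 genes changed 1.5-fold it called 17%, and of 100 genes changed 2-fold it called 82%. Most changes of 1.5-fold were thus missed in that simulation. DESeq2 1.42.0, limma 3.58.1, sva 3.50.0, other scalings, a replicate block and leaving libraries out were alternatives. The second table's values served only for scaling, and no p-value of the authors was used. The named genes were the 10 enzymes, Cpt1b, paralogues, called genes of the other glycolytic list and of the fibre lists, reference genes, and the 5 genes nearest to the enzymes' mean profile. Marker lists covered fast and slow fibres, adipocytes, macrophages, endothelium, fibroblasts, erythroid cells, Schwann cells, tendon, smooth muscle and satellite cells. Of the genes this rule names, 1 is not reported here. The enzymes and lists were chosen with earlier results of these data known.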

Additional observations from a re-analysis of the deposited data

Results flagged for a closer look

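In 22 groups of values, 9 enzymes and 2 ratios in KO and control muscle, the highest or lowest library was compared with its nearest neighbour by Dixon's ratio, the gap divided by the group's range, both on the log2 scale. Of these 5 exceeded the 95% critical value for 7 or 8 libraries, and chance flags about 1 in 20 groups. Tpi1, the triose isomerase, was low in KO replicate 4, at 2751 CPM with the next library at 4519 CPM (ratio 0.722). Pkm, the pyruvate kinase, was low in the same library, at 166.5 CPM with the next at 242 CPM (ratio 0.577). Pgk1, the phosphoglycerate kinase, was high in control replicate 7, at 2146 CPM with the next at 1507 CPM (ratio 0.628). Pgam2, the muscle mutase, was low in that control library, at 1967 CPM with the next at 3102 CPM (ratio 0.563). The Pgam2 to Pgam1 ratio was also low there (ratio of gap to range 0.583). Taken on CPM instead, the ratios are 0.65 for Tpi1 and 0.692 for Pgk1, which still exceed the critical value, and 0.497 for Pkm and 0.464 for Pgam2, which do not. All 5 outlying values lay in KO replicate 4 (2) or control replicate 7 (3), the libraries farthest out on the first principal component, and no cause was tested.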

How the results depend on the processing

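None of the 9 enzymes passed an adjusted p of 0.05 under any of 26 alternatives, and Pgam2, Eno3 and Pkm kept a negative sign in all 26. Eno3 was nearest to 0 with the first surrogate variable (-0.05), and ran from -0.75 to -0.37 with 1 library left out. The count of genes called, 240 in the reported fit with 77.1% higher, was 449 with DESeq2 (67.9% higher), 501 with the first surrogate variable (70.9%), 403 without control replicate 7 and KO replicate 4 (63.3%) and 161 to 465 with 1 library left out, the highest without control replicate 7 (66.9%). The replicate block gave 117 genes and 2 of the other glycolytic genes, of which 4 were called with any 1 library left out. Same-numbered libraries correlated over 0.1 in 3 of 7 pairs, and 1 of 7 correlated best with its own number, so the titles' numbers were not taken to pair mice. Small values changed sign. Hk1 became -0.000237 with RLE scaling, -0.0142 with upper quartile scaling and -0.116 with the surrogate variable. Gpi1 became 0.0494 by library size alone, 0.0241 with the replicate block and 0.0902 with the surrogate variable. Aldoa became 0.0179 by library size alone and 0.0143 with the replicate block. Pgk1 and Pgam1 became -0.0427 and -0.0332 with the surrogate variable. With 1 library left out, log2 values ran from -0.107 to 0.158 for Hk1, -0.0686 to 0.0379 for Gpi1, -0.099 to 0.0605 for Aldoa, -0.00156 to 0.135 for Tpi1, -0.0131 to 0.252 for Pgk1 and -0.062 to 0.406 for Pgam1, the last 2 negative without KO replicate 4. The enzymes' share of tags differed by -0.81 to -0.37 percentage points. The Pgam2 to Pgam1 log2 difference ran from -0.65 to -0.24, and with the replicate block it was -0.30 (exact permutation p = 0.516). The causes were not tested. Counting error is an SD of 0.27 for Hk1 (10 to 66 tags), of a within-group SD of 0.53.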

Other observations

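Genes listed as markers of cell types other than fibres were summed in each library, though fibres may also express some of them. Fibroblast markers summed to 2111 ± 668 CPM in KO muscle and 3263 ± 656 CPM in control muscle (SD, n = 7 and 8). Of 7 tested fibroblast genes edgeR called 0 after adjustment and 4 at an unadjusted p under 0.05, DESeq2 called 1 and voom 0. Tendon markers summed to 260.0 ± 114 CPM in KO muscle and 332 ± 97.8 CPM in control muscle. Of 6 tested tendon genes edgeR called 1, Comp, a cartilage matrix protein, at a log2 fold change of -0.79 (adjusted p = 0.0241). DESeq2 called 3 and voom 1, 3 had an unadjusted edgeR p under 0.05, and 5 had a negative log2 fold change. Adipocyte markers summed to 913 ± 476 CPM in KO muscle and 862 ± 188 CPM in control muscle. Car3 alone averaged 843 CPM in KO muscle and 794 CPM in control muscle. The adipocyte sum thus follows mainly 1 gene and is not taken as a measure of adipocytes. Of the 7 adipocyte genes 1 passed, Lep, which encodes leptin, at -1.83 (adjusted p = 0.0296, edgeR). Lep was low, averaging 1.3 CPM in KO muscle and 4.5 CPM in control muscle, with 5 to 87 tags a library. Comp and Lep were named after their values were seen. Macrophage markers summed to 47.7 ± 12.7 CPM in KO muscle and 56.1 ± 15.5 CPM in control muscle. Of 6 tested macrophage genes edgeR, DESeq2 and voom called 0, and 2 had an unadjusted p under 0.05. Endothelial markers summed to 205 ± 35.7 and smooth muscle markers to 2275 ± 333 CPM in KO muscle, against 225 ± 41.0 and 2666 ± 352 CPM in control muscle. Des alone averaged 1890 CPM in KO muscle and 2223 CPM in control muscle. The smooth muscle sum thus follows mainly 1 gene and is not taken as a measure of smooth muscle. Erythroid markers summed to 28.6 ± 14.6, Schwann markers to 68.0 ± 29.1 and satellite cell markers to 22.3 ± 4.29 CPM in KO muscle, against 35.1 ± 24.5, 75.9 ± 32.3 and 24.7 ± 4.27 CPM in control muscle. In the last 5 lists edgeR, DESeq2 and voom called 0 genes, and 1 gene, of smooth muscle, had an unadjusted edgeR p under 0.05. Of 12 tested reference genes edgeR and voom called 0, DESeq2 called 1, and 3 had an unadjusted edgeR p under 0.05.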
